A study of Mus musculus with 17 samples.

Results

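The doublecortin and astrotactin genes are 5 genes of neuronal migration, Dcx, Dclk1, Dclk2, Astn1 and Astn2. They were taken by name from the 36293 genes of the bulk files and from the 37608 genes with a row in any single-nucleus table, and all 5 were found in both. The study compared chronic unpredictable stress (CUS) with handled controls in adult male C57BL/6 mice, of the J substrain by the study's methods. CUS mice received 3 stressors a day for 12 days, whereas controls were kept in another room and handled each day. Bulk nuclear RNA came from a 2 mm punch of the medial prefrontal cortex (mPFC) of 4 control and 5 CUS mice at postnatal day 90, after behavioral testing. Single nuclei (sNucDrop-seq) came from the neocortex of 4 control and 4 CUS mice at postnatal day 80, taken 24 h after the last stressor. Dcx and Astn2 were selected on measured values of these data, namely lower levels in CUS in layer 2/3 and layer 4 excitatory nuclei of the same sNucDrop-seq mice. Their values in the nuclei are therefore a description without a test. The bulk mice are different animals, and there all 5 genes were tested. Dclk1, Dclk2 and Astn1 were added as relatives and were tested in both data sets.

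Doublecortin is a microtubule-binding protein that stabilizes microtubules in migrating neuroblasts and growing neurites, and its antibody is widely used to mark newborn neurons. Dclk1 and Dclk2 encode doublecortin-like kinases, which join the same tandem doublecortin domains to a serine/threonine kinase domain, and act partly in place of doublecortin during cortical development. Astrotactins are membrane glycoproteins. Astrotactin 1 serves in the adhesion of migrating neurons to glial fibers, and astrotactin 2 binds it, regulates its presence at the cell surface and has a further role in the trafficking of synaptic surface proteins. Transcripts of these genes persist in mature cortical neurons, in which nuclear RNA holds many unspliced molecules.

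The members differ in size and position (build mm10, as in the bulk files). Dcx lies on the minus strand at chrX:143855842-143933311 and spans 77.5 kb, of which 16.33% is exonic in GENCODE vM21. Dclk1 (chr3:55242364-55539068, plus strand) spans 296.7 kb. Dclk2 (chr3:86786151-86920852, minus strand) spans 134.7 kb. Astn1 (chr1:158362273-158691781, plus strand) spans 329.5 kb. Astn2 (chr4:65380803-66404611, minus strand) spans 1023.8 kb, of which 0.48% is exonic. The gene Trim32, an E3 ubiquitin ligase gene, sits inside Astn2 on the opposite strand and had 591 to 876 bulk reads per mouse, with a log2 fold change of 0.11 (adjusted p = 0.441). The library was stranded, but whether the authors' counting of bulk reads used strand is not given in the sources used here. Dcx and Dclk2 overlapped no other gene of the bulk files.

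Which start sites the counted transcripts use was not measured. A promoter window is shown for each of the 2 genes that were lower in nuclei. Each holds 250 bases before and 50 after a RefSeq start site (GRCm38.p6), 5′ to 3′ on the gene's strand, with capitals for matches to any of 6 motifs searched on both strands. The Dcx window shown is chrX:143933170-143933469 and the Astn2 window is chr4:66404434-66404733. Another RefSeq start site of Dcx, with the window chrX:143933075-143933374, is not shown.
Dcx: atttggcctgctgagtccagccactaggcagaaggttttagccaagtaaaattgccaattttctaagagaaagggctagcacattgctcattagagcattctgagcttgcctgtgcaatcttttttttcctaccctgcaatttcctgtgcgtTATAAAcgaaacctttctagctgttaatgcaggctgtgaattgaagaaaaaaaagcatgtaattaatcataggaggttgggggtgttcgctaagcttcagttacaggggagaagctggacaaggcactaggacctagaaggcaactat
Astn2: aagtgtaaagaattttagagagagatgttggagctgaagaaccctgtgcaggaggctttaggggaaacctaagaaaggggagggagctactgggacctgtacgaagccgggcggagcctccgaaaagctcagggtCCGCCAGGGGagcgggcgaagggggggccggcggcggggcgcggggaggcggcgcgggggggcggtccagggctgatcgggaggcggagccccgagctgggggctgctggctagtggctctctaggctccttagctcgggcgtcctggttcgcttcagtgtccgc
The motifs were a TATA box, an E-box, a cAMP response element core, a YY1 core, a glucocorticoid receptor site and a CTCF core. The capitals in the Dcx window mark the TATA box letters, which 13.62% of 32851 promoter windows held on either strand. Their first base lies at -98 from the start site. Those in the Astn2 window mark the CTCF core letters, held by 5.67% of windows. A window of Dclk1, not shown, held the CTCF core letters too. The YY1 letters were in 6.05%, the receptor letters in 0.47% and the cAMP response letters in 7.51% of all windows, and none of these was found in the 7 windows of the 5 genes. The Dcx window had 43.0% G and C and 3 CG pairs, whereas the Astn2 window had 66.3% and 23, beside a median of 52.7% over all windows. These matches describe letters only.

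Bulk libraries held 26188825 to 30525015 reads on genes. Of 40000 barcodes in the sNucDrop-seq tables, 26643 nuclei were kept, 1935 to 4230 per mouse, with 4713827 to 12426541 UMIs per mouse. Any 2 mice shared at most 2 barcodes. Nuclei were clustered without the 5 genes among the variable genes, and clusters were named from marker genes where these sufficed, otherwise by a leading gene. The result was 25 classes of over 200 nuclei, of which 13 were excitatory, 7 inhibitory (striatal-like nuclei included) and 4 non-neuronal. CUS replicate 2 stood apart from the other CUS mice. Over all nuclei, edgeR's quasi-likelihood test called 1 of 5017 genes at an FDR of 0.2, and it called 792 when CUS replicate 2 was left out. The main results in nuclei are therefore also given without that mouse. The authors ran the nuclei in 2 batches, each with 2 control and 2 CUS mice, so batch was balanced over the groups. The batch of each mouse is not given in the sources used here, so no batch term was fitted and differences between batches remain in the spread between mice.

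In the mPFC, none of the 5 genes passed the test at an FDR of 0.05, beside 3.29% of the 18394 genes tested (edgeR's quasi-likelihood test, Benjamini-Hochberg adjustment). At an unadjusted p under 0.05 there was 1 gene of the 5, Astn1, beside 21.5% of all genes tested, and neither edgeR's likelihood ratio test nor DESeq2 called any of the 5. Dcx had 140.1, 120.9, 92.9 and 82.7 counts-per-million (CPM) in the control mice and 83.7, 114.7, 89.7, 80.9 and 80.3 in the CUS mice. Controls 1 and 2 were high, and the groups overlapped. The mean was 109 ± 26.2 CPM (SD, n = 4) against 89.9 ± 14.4 (n = 5), a log2 fold change of -0.28 ± 0.15 (SE, adjusted p = 0.283). Leaving out control replicate 1 gave -0.14 and leaving out control replicate 4 gave -0.39. In bulk tissue, fewer cells of a type and less RNA per cell cannot be told apart. The 9 markers of immature neurons, a cell type that also uses Dcx, summed to 24.8 to 34.1 CPM in control and 21.4 to 26.8 in CUS mice, and 2 of the 9 were lower without overlap, as were 4.7% of all genes tested. Over all nuclei of the sNucDrop-seq mice, the same markers summed to 74.7 to 88.2 CPM in control and 75.0 to 108.9 in CUS mice. Some of the 9 were highest in classes of other cell types. The part of these markers in the Dcx values was not tested.

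The kinase relatives did not pass the test in bulk either. Dclk1 had 1152.5 to 1309.3 CPM in control and 1173.4 to 1279.6 in CUS mice, a log2 fold change of -0.02 ± 0.06 (adjusted p = 0.908). Dclk2 had 116.1, 134.6, 123.1 and 122.8 CPM in control and 106.2, 126.6, 112.0, 106.4 and 112.5 in CUS mice. CUS replicate 2 lay within the control range and the other 4 CUS mice below it. The log2 fold change of Dclk2 was -0.14 ± 0.06 (adjusted p = 0.233).

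Neither astrotactin had a log2 fold change below 0 in bulk. Astn1 had 524.9, 528.7, 524.7 and 467.1 CPM in control mice and 548.5, 586.6, 563.1, 551.8 and 534.5 in CUS mice. All CUS mice were above all controls, as for 4.06% of genes tested, with a log2 fold change of 0.12 ± 0.06 that did not pass the test (adjusted p = 0.229). The 6 markers of oligodendrocyte precursors (OPC), a class with high Astn1 in the nuclei, also summed higher without overlap, to 1133 to 1324 CPM in control and 1436 to 1565 in CUS mice. Only 1 of the 6 was itself higher without overlap and 1 was lower, and their part in the Astn1 values was not tested. Astn2 ranged from 368.8 to 419.6 CPM in control and from 374.7 to 421.5 in CUS mice, a log2 fold change of 0.04 ± 0.06 (adjusted p = 0.709). The 2 groups covered nearly the same range.

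**Figure D1:**
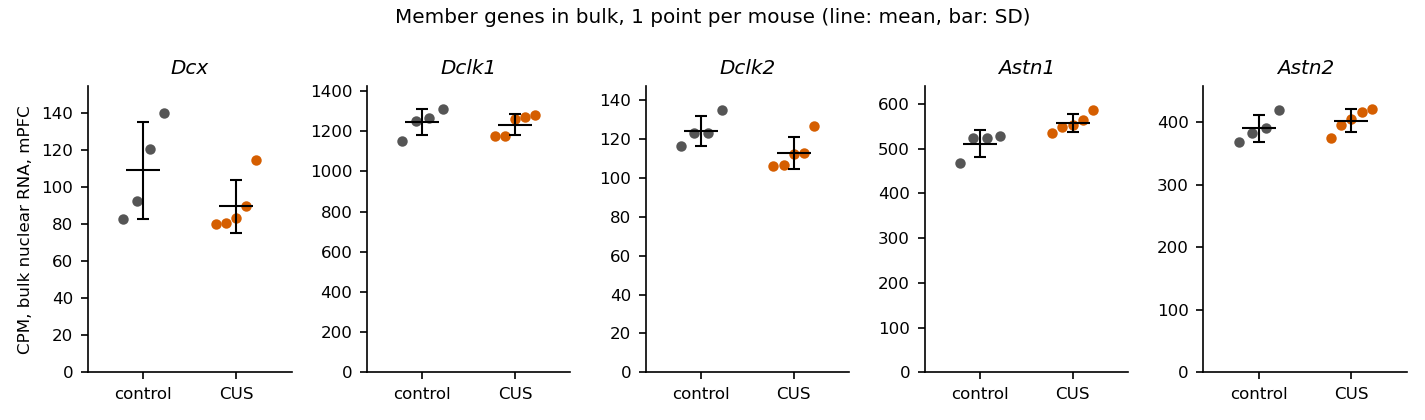
CPM of the 5 genes in bulk nuclear RNA of the mPFC, 1 point per mouse for 4 control and 5 CUS mice, with the mean as a line and the SD as a bar. The groups overlap for Dcx, Dclk1, Dclk2 and Astn2, and all CUS mice lie above all controls for Astn1 without passing the test.

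In nuclei of the neocortex, Dcx and Astn2 were lower in the excitatory sum of CUS mice and near equal in the inhibitory sum. Summed over excitatory nuclei, Dcx had 241.9, 201.1, 171.7 and 232.8 CPM (UMIs, scaled over the genes tested) in control and 140.4, 178.3, 142.4 and 140.2 in CUS mice. CUS replicate 2 alone overlapped with the controls. The log2 fold change of Dcx was -0.49 ± 0.12, -0.58 without that mouse and -0.42 without control replicate 1. In inhibitory nuclei Dcx ranged from 112.5 to 170.6 CPM in control and from 128.9 to 175.0 in CUS mice, a log2 fold change of 0.00 ± 0.15, and -0.09 without CUS replicate 2. Astn2 had 398.4, 455.9, 401.4 and 403.7 CPM in control and 304.6, 401.8, 347.8 and 340.0 in CUS excitatory nuclei. Again only CUS replicate 2 reached the control range. The log2 fold change of Astn2 was -0.25 ± 0.10 in excitatory nuclei, -0.33 without CUS replicate 2 and -0.19 without control replicate 2. In inhibitory nuclei it was 0.09 ± 0.14, 0.06 without CUS replicate 2 and 0.20 without CUS replicate 1. On the log2(CPM + 1) scale the effect in excitatory minus that in inhibitory nuclei was -0.48 for Dcx and -0.33 for Astn2. The excitatory sum includes the layer 2/3 and layer 4 nuclei whose values chose both genes. These 2 classes held 1604 and 1829 of its 7577 Dcx UMIs, and 2384 and 4610 of its 16570 Astn2 UMIs. The lower excitatory sums and this contrast are therefore in part set by that choice. Striatal-like nuclei were 292 of 798, 312 of 954, 372 of 1000 and 175 of 484 inhibitory nuclei in control mice. In CUS mice they were 169 of 649, 260 of 757, 127 of 574 and 97 of 715. Their levels of Dcx (64.7 CPM, scaled over all genes) and Astn2 (105 CPM) were low. The part of this mix in the inhibitory sums was not tested. By class, Dcx was below 0 in 5 of 7 inhibitory classes and Astn2 in 4.

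For the 3 relatives the excitatory minus inhibitory difference of these sums was tested. The quantity was 0.13 for Dclk1, -0.16 for Dclk2 and 0.08 for Astn1, and the exact two-sided permutation test over the 8 mice gave p = 0.0571, 0.2286 and 0.2 (adjusted over the 3 genes, 0.1714, 0.2286 and 0.2286). The smallest p that 4 against 4 mice can give is 0.0286, so after adjustment a single gene could not reach 0.05, and the adjusted p of Dclk1 alone was under 0.2. The inhibitory sums include the uneven share of Striatal-like nuclei, so this test cannot tell a change within classes from a change in their mix. For Dclk1 the inhibitory sum had a log2 fold change of -0.13 ± 0.12, whereas 5 of 7 inhibitory classes were above 0 (median 0.14). In excitatory nuclei the log2 fold changes were -0.01 ± 0.09 for Dclk1, -0.06 ± 0.11 for Dclk2 and -0.10 ± 0.11 for Astn1 (adjusted p = 0.977, 0.843 and 0.714). Without CUS replicate 2 they were -0.04, -0.07 and -0.16 (adjusted p = 0.841, 0.775 and 0.406), and Astn1 was -0.025 without CUS replicate 1. None of the 3 passed the FDR of 0.2, which 0.0374% of the 5341 genes tested did with all mice and 14.3% without CUS replicate 2.

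Upper-layer excitatory nuclei gave the values that chose Dcx and Astn2. In 3712 Ex_L2/3-like nuclei, named by Cux2, Rasgrf2, Calb1 and Enpp2, Dcx had 235.0, 230.5, 172.9 and 208.0 CPM in control and 125.8, 152.1, 111.3 and 146.9 in CUS mice. Every CUS mouse was below every control, as for 2.74% of genes tested in this class. The log2 fold change of Dcx was -0.65 ± 0.14 (-36.32%). Astn2 had 258.8, 329.8, 281.0 and 265.2 CPM in control and 221.7, 241.9, 193.6 and 214.2 in CUS mice, also without overlap, with a log2 fold change of -0.39 ± 0.12. Without CUS replicate 2 the values were -0.71 for Dcx and -0.45 for Astn2. The smallest declines with a mouse left out were -0.57 for Dcx (without CUS replicate 3) and -0.31 for Astn2 (without control replicate 2). The choroid plexus markers summed to 2.28 to 7.74 CPM in control and 15.3 to 23.5 in CUS mice of this class, with 1 of 5 at 0 and 1 higher without overlap, and their part in these values was not tested. The share of all genes higher without overlap is not given for this class.

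In 3102 Ex_L4-like nuclei, named by Rorb, Kcnh5 and Zmat4, the control levels of both genes were above those in Ex_L2/3-like nuclei, a difference that was not tested. Dcx had 384.0, 333.1, 307.3 and 338.9 CPM in control and 224.2, 290.5, 226.5 and 220.4 in CUS mice. Astn2 had 748.3, 899.5, 830.7 and 969.7 CPM in control and 578.4, 673.5, 532.4 and 570.3 in CUS mice. Neither gene overlapped between groups, as for 2.86% of genes tested, and CUS replicate 2 was the highest CUS mouse for each. The log2 fold change was -0.51 ± 0.13 for Dcx and -0.55 ± 0.12 for Astn2, and -0.60 and -0.62 without CUS replicate 2. The smallest declines with a mouse left out were -0.45 for Dcx (without control replicate 1) and -0.49 for Astn2 (without control replicate 4).

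The Ex_L4-like class joins 2 clusters with different levels of Astn2. In the cluster of 1815 nuclei, Astn2 had 993.42 to 1443.53 CPM (here scaled over all genes) in control and 819.25 to 919.24 in CUS mice. In the cluster of 1287 nuclei it had 228.1 to 310.22 in control and 120.41 to 219.31 in CUS mice. Dcx was at like levels in the 2 clusters, 276.72 to 318.75 in control and 176.1 to 252.11 in CUS mice in the first, and 257.57 to 322.19 against 178.39 to 221.8 in the other. No pair of ranges overlapped. The clusters form the class whose values chose both genes, and the share of all genes without overlap is not given for each cluster. The 6 markers of layer 4 summed to 2272 to 2527 CPM in control and 1475 to 2252 in CUS mice of this class, and the 10 striatal markers to 403 to 510 and 546 to 830, both without overlap. Among these, no layer 4 marker and 1 striatal marker differed without overlap on its own. Of all genes tested in this class 2.86% were lower without overlap, and the share that were higher is not given. Of the 5 choroid plexus markers 1 was at 0, 1 was higher without overlap, and their sum was 0.816 to 9.48 CPM in control and 13.4 to 31.7 in CUS mice. The part of these in the Dcx and Astn2 values was not tested.

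**Figure D2:**
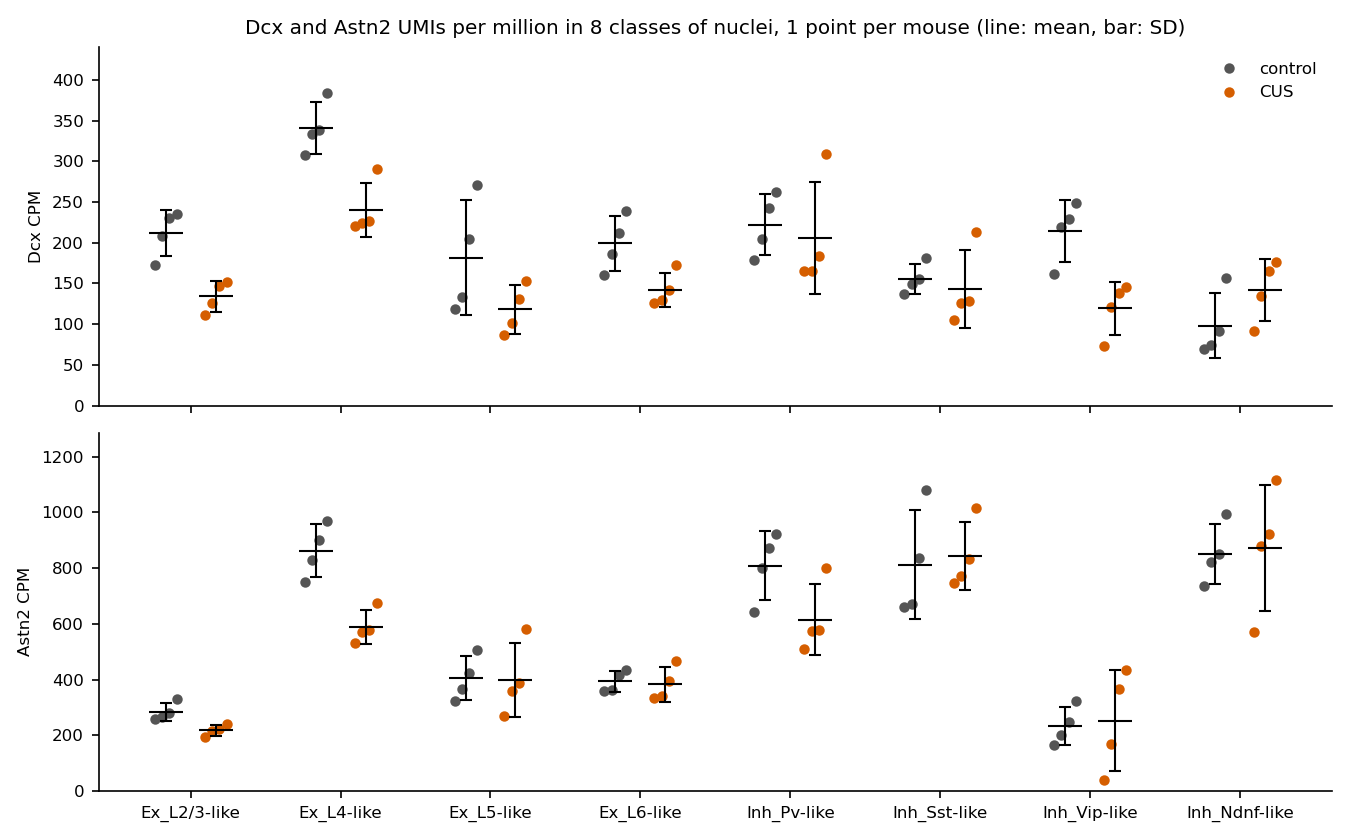
CPM of Dcx (top) and Astn2 (bottom) in 4 excitatory and 4 inhibitory classes, 1 point per mouse for 4 control and 4 CUS mice, with the mean as a line and the SD as a bar. The groups are apart for both genes in Ex_L2/3-like and Ex_L4-like nuclei and for Dcx in Inh_Vip-like nuclei.

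Counts of nuclei gave the same order as the summed UMIs. A Dcx UMI was seen in 37.2% ± 0.792 (SD, n = 4) of Ex_L2/3-like nuclei in control and 23.9% ± 3.62 in CUS mice, at a median depth of 2461.5 UMIs. Nuclei thinned to 1000 UMIs gave 15.03% ± 1.02 and 11.02% ± 0.720, and the ranges of 13.7% to 16.19% and 10.11% to 11.81% did not overlap. In Ex_L4-like nuclei the thinned shares with Dcx were 24.6% ± 2.68 and 18.1% ± 1.92. Of the classes that should lack Dcx, astrocyte-like nuclei had a UMI in 1.36% at a median depth of 1209 UMIs, Oligo_Opalin-like in 4.46% at 1182 and Microglia-like in 15.0% at 1628. Their thinned shares were 1.31% ± 1.15, 3.01% ± 2.23 and 8.55% ± 6.65 (n = 8), so the thinned share in CUS Ex_L2/3-like nuclei lay within 1 SD of that in the 194 Microglia-like nuclei deep enough to be thinned. For Astn2 the thinned shares were 45.6% ± 1.05 and 36.5% ± 0.570 in Ex_L4-like nuclei, without overlap, and 19.2% ± 2.41 and 15.6% ± 1.92 in Ex_L2/3-like nuclei, with overlap. The lowest thinned share of Astn2 among the 25 classes was that of Striatal-like nuclei, 8.14% ± 1.55 (n = 8) at a median depth of 1998.5 UMIs, where Ex_L4-like nuclei had 1966.5. Thinning left out 919 control and 1491 CUS nuclei of all classes.

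Outside these classes both genes were below 0 in most excitatory classes, with sizes that varied between classes. Dcx had a log2 fold change below 0 in 10 of the other 11 excitatory classes (median -0.42), where 48.5% to 51.3% of all tested genes were below 0. Astn2 was also below 0 in 10 of these 11 (median -0.13), with the count at 5 when CUS replicate 1 was left out. That of Dcx ran from 9 to 11 with each mouse left out. Both genes were below 0 in 9. In the excitatory sum, 95.0% of the 200 tested genes spanning 500 kb or more, as Astn2 does, were below 0 (median -0.19). Of genes of 50 to 100 kb, as Dcx is, 61.9% were below 0 (median -0.04). The classes come from the same mice, and the part of gene length in these counts was not tested. Dcx in Ex_Tshz2-like nuclei had 300.1, 361.1, 251.9 and 399.4 CPM in control and 202.6, 143.2, 124.3 and 180.4 in CUS mice, a log2 fold change of -0.95 ± 0.27 over 195 UMIs, without overlap as for 1.36% of genes. In Ex_L6-like nuclei the log2 fold change of Dcx was -0.48 ± 0.16, in Ex_L5-like nuclei -0.49 ± 0.21 and in the Slc26a4 cluster -0.53 ± 0.21, all with overlap. Astn2 was near 0 in the first 2 of these (-0.04 ± 0.14 and -0.04 ± 0.17). With a mouse left out it ran from -0.15 to 0.025 in Ex_L6-like and from -0.27 to 0.09 in Ex_L5-like nuclei. It was lower without overlap in Ex_L5/6-like nuclei, at 411.2, 408.7, 461.8 and 397.6 CPM in control and 207.6, 325.0, 346.7 and 337.2 in CUS mice (log2 fold change -0.47 ± 0.17, as for 1.68% of genes). There Dcx was at -0.05 ± 0.25, at -0.35 without CUS replicate 2 and at 0.07 without CUS replicate 4.

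Inhibitory classes were mixed. Dcx was below 0 in 5 of 7, where 47.7% to 49.6% of all genes were, and without overlap in 1, the Inh_Vip-like nuclei, at 248.8, 229.4, 161.0 and 219.3 CPM in control and 120.7, 138.3, 145.1 and 73.4 in CUS mice. These values rest on 126 UMIs in all, with a log2 fold change of -0.92 ± 0.31, where 1.41% of genes were lower without overlap. The log2 fold change of Dcx was 0.46 ± 0.36 in Inh_Ndnf-like nuclei and 0.33 ± 0.23 in the C130073E24Rik cluster. With a mouse left out the first ran from 0.28 (without control replicate 3) to 0.87 (without control replicate 2), and the other from 0.20 (without CUS replicate 2) to 0.44 (without CUS replicate 1). Astn2 was below 0 in 4 of 7 inhibitory classes and ranged from -0.40 ± 0.16 in Inh_Pv-like nuclei to 0.54 ± 0.45 in the Foxp2 cluster.

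Dclk1, Dclk2 and Astn1 gave 68 tests over the classes. None passed an FDR of 0.2 by edgeR's quasi-likelihood test, by its likelihood ratio test or by DESeq2, the smallest adjusted p was 0.659, and 4 had an unadjusted p under 0.05, beside 2.8% to 11.5% of all genes in each class. Those 4 were Astn1 in the C130073E24Rik cluster (-0.47 ± 0.19), in Claustrum-like (-0.53 ± 0.25) and in Inh_Pv-like nuclei (-0.38 ± 0.17), and Dclk2 in Claustrum-like nuclei (1.24 ± 0.52). Dclk1 lay between -0.17 and 0.16 on the log2 scale in all 13 excitatory classes. In Ex_L2/3-like nuclei Dclk1 had 826.6 to 968.3 CPM in control and 798.7 to 983.7 in CUS mice, and Astn1 248.2 to 323.2 and 219.1 to 293.0. Without CUS replicate 2 Astn1 was at -0.20 in this class and -0.21 in Ex_L4-like nuclei, without passing (adjusted p = 0.374 and 0.48). It was at -0.04 in Ex_L2/3-like nuclei without control replicate 2, and at -0.04 in Ex_L4-like nuclei without CUS replicate 1. In Striatal-like nuclei Dclk1 was lower without overlap (-0.15 ± 0.14), as were 1.99% of genes, and did not pass. Dclk2 passed the filter on low counts in 9 of 13 excitatory classes and had too few UMIs in Ex_L2/3-like (341) and Ex_L4-like nuclei (254).

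**Figure D3:**
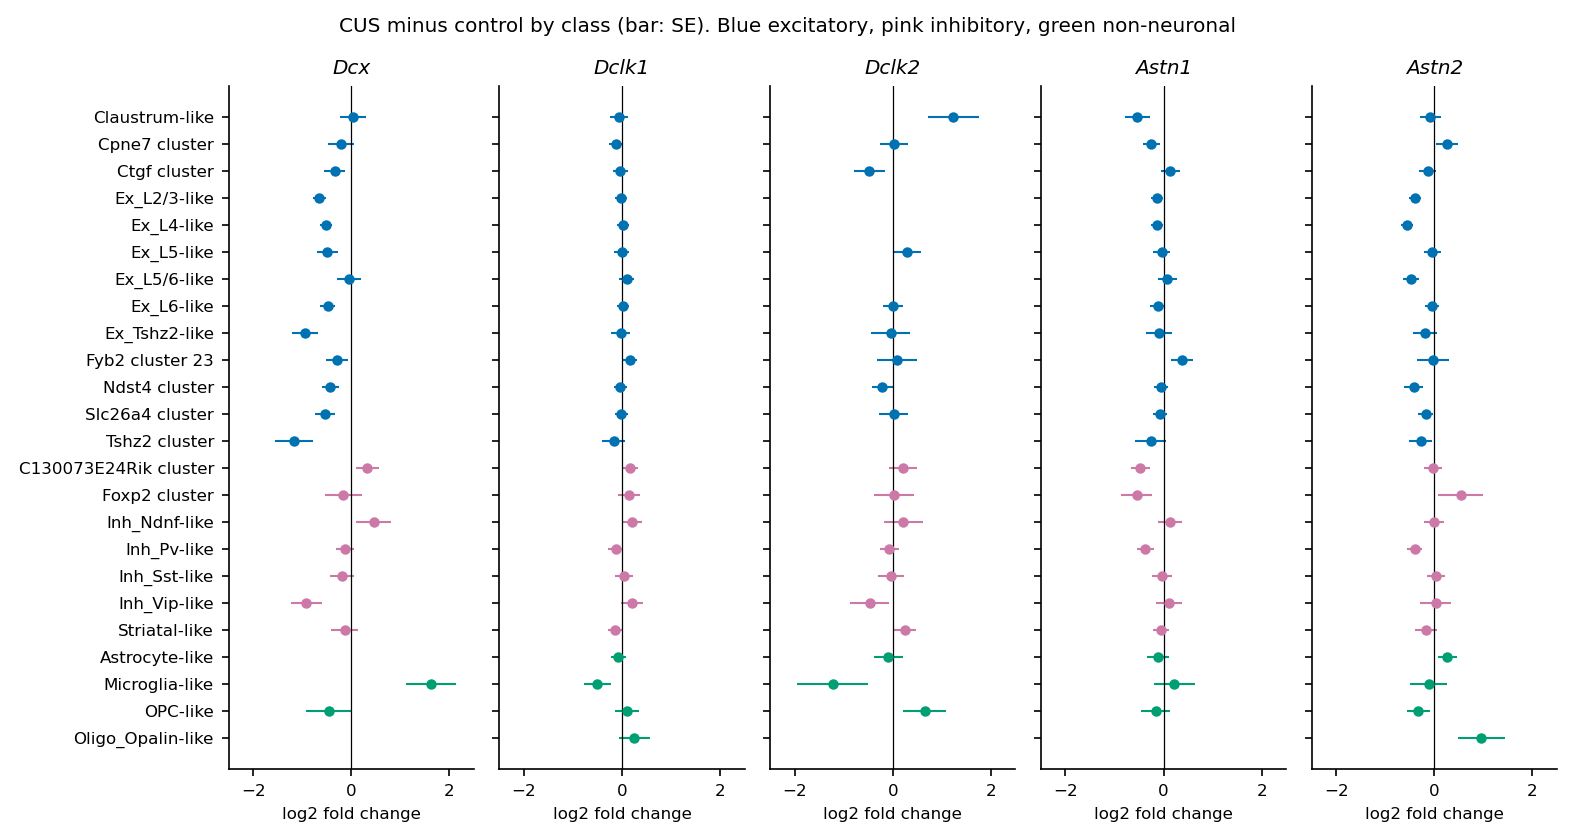
Log2 fold change, CUS minus control, of the 5 genes in 24 classes (rows), with the SE as a bar and colors for excitatory, inhibitory and non-neuronal classes. Dcx lies below 0 in 12 of 13 excitatory classes, the 2 that chose it included, and Dclk1 lies between -0.17 and 0.16 in these. A missing point marks a gene with too few UMIs to be tested.

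The length of a gene moved with the fold change in nuclei. Over all nuclei, 94.1% of the 205 tested genes spanning 500 kb or more had a log2 fold change below 0, with a median of -0.17, whereas 32.7% of 2431 genes under 50 kb did (median 0.06). Astn2, at 1023.8 kb, had -0.17 ± 0.11, and -0.09 without CUS replicate 1. In Ex_L2/3-like nuclei the long genes had a median of -0.20 and 10% of them were below -0.33, with Astn2 at -0.39. In Ex_L4-like nuclei the median was -0.20, 10% were below -0.37 and Astn2 was at -0.55. Dcx, at 77.5 kb, belongs to genes of 50 to 100 kb, whose medians were -0.03 in Ex_L2/3-like and -0.04 in Ex_L4-like nuclei and of which 10% were below -0.26 and -0.25. Dcx was at -0.65 and -0.51. Astn1 and Dclk1 belong to genes of 100 to 500 kb, with medians of -0.08 and -0.07, and had log2 fold changes of -0.13 and -0.02 in the first class and -0.13 and 0.02 in the other. The part of gene length in the Astn2 and Dcx values was not tested.

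The classes with the highest level differed between the 5 genes, as levels over all 8 mice in CPM scaled over all genes. Levels of different genes are not compared here, because they are not per length. Dcx was highest in Ex_L4-like nuclei at 247 ± 48.8 (SD, n = 8), then in Fyb2 cluster 23 (235 ± 43.8), Ex_Tshz2-like (204 ± 82.5) and Inh_Pv-like nuclei (182 ± 38.8). This order pools both groups. In control mice Ex_Tshz2-like nuclei were second (272), and in CUS mice Fyb2 cluster 23 was first (210 against 205 in Ex_L4-like nuclei) with Ex_Tshz2-like nuclei at 136. It was lowest in astrocyte-like nuclei at 11.6 ± 8.59 and low in Oligo_Opalin-like nuclei (39.6 ± 25.5). Dclk1 was highest in astrocyte-like nuclei. They held 2237 ± 163 CPM, between 2060 and 2567 in each mouse, and the next class, Ex_L5-like, held 1185 ± 147. The exact two-sided sign-flip permutation test over 8 mice gave p = 0.0078 for this step, the smallest it can give, which is 0.1875 after adjustment over the 24 steps of the order. Dclk1 was lowest in Oligo_Opalin-like nuclei (334 ± 110).

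Dclk2 was highest in 2 inhibitory classes, at 128 ± 27.5 in the Foxp2 cluster and 124 ± 16.7 in Inh_Pv-like nuclei, followed by OPC-like nuclei at 108 ± 42.02 over 56 UMIs, which were first in CUS mice (129). It was lowest in Ex_L5/6-like nuclei (30.3 ± 11.5). Over all mice Astn1 ran from 276 ± 53.6 in Inh_Ndnf-like and 270 ± 72.3 in OPC-like nuclei to 58.8 ± 28.9 in Oligo_Opalin-like nuclei at the bottom. In control mice alone the C130073E24Rik cluster was first (298), and Inh_Ndnf-like nuclei had 263. Astn2 was highest in Inh_Ndnf-like (708 ± 128), Inh_Sst-like (695 ± 119), OPC-like (675 ± 173) and Ex_L4-like nuclei (617 ± 134). In control mice alone OPC-like (737) and Ex_L4-like nuclei (730) came before Inh_Ndnf-like ones (704). Over all mice Astn2 was lowest in the Foxp2 cluster (96.8 ± 43.0), Fyb2 cluster 23 (98.2 ± 32.9) and striatal-like nuclei (105 ± 26.3). With 8 mice a single step cannot reach an adjusted p of 0.05 over 24 steps, so this test does not tell which neighbors in the order differ.

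Across the 25 classes, the genes with the class pattern most like Dcx were Nrg3 (Pearson r = 0.90), Jakmip2 (0.89), Jazf1 (0.89) and Cadps (0.88), among 12651 genes with at least 20 CPM in some class. For Astn2 they were Zfp30, Ptpn21, Zmat5 and St6galnac4, with lower r of 0.71 to 0.73. Dcx and Astn2 themselves had r = 0.17. These are descriptions over classes of the same 8 mice, which share libraries and depth.

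**Figure D4:**
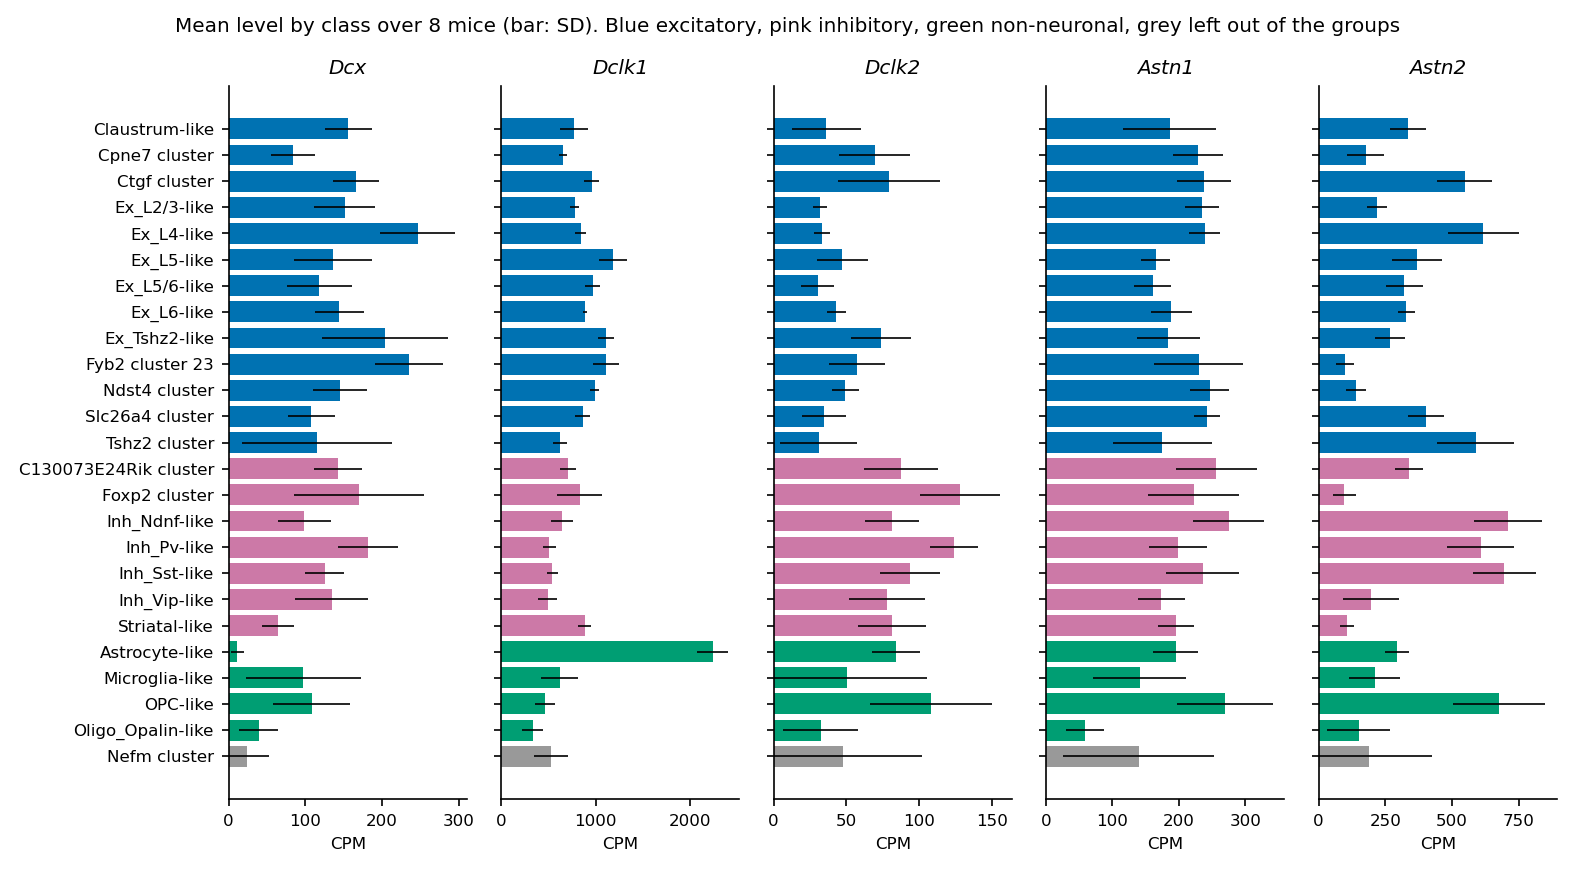
Mean level of each gene in 25 classes (rows) over 8 mice, in CPM scaled over all genes, with the SD as a bar. Dcx is highest in Ex_L4-like nuclei and lowest in astrocyte-like nuclei, Dclk1 is highest in astrocyte-like nuclei, and Astn2 is high in Inh_Ndnf-like, Inh_Sst-like, OPC-like and Ex_L4-like nuclei.

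Of 70 genes in 8 lists around these proteins, 68 could be tested in bulk, and 4 were lower and 0 higher in CUS mice at an FDR of 0.05, beside 2.13% and 1.16% of all genes. The count of lower list genes was 1 when control replicate 2 or CUS replicate 1, 4 or 5 was left out. In these fits 107, 253, 105 and 104 of all genes were called lower, beside 392 with all mice. The count of lower list genes was 7 without control replicate 3, when 733 of all genes were called lower. DESeq2 called 10 list genes lower and 0 higher, and 856 of all 18394 genes lower. The 4 genes came from 4 lists. Dcdc2a, a doublecortin domain gene known from dyslexia genetics, fell from 14.5 ± 1.70 to 10.9 ± 0.881 CPM (log2 fold change -0.41 ± 0.09, adjusted p = 0.0336), and lost its call in every fit with a mouse left out except the one without control replicate 3. Brinp3, one of the BRINP genes that share the membrane attack complex/perforin domain with astrotactins, fell from 216 ± 41.7 to 136 ± 23.0 CPM (-0.67 ± 0.14, adjusted p = 0.0246). Map4, a microtubule-associated protein, fell from 146 ± 6.06 to 122 ± 7.02 CPM (-0.25 ± 0.06, adjusted p = 0.0347). Gja1, the gap junction protein connexin 43 of astrocytes and radial glia, fell from 30.5 ± 3.87 to 20.8 ± 1.35 CPM (-0.56 ± 0.08, adjusted p = 0.00813). Left-out mice ended the call of Brinp3 in 4 of 9 fits and of Map4 in 5, and that of Gja1 in 0. Gja1 is also an astrocyte marker, and 3 of the 8 astrocyte markers were lower without overlap, as were 4.7% of all genes tested. The 8 markers summed to 1929 to 2335 CPM in control and 1685 to 2027 in CUS mice. The part of these in the Gja1 and Brinp3 values was not tested.

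The other doublecortin domain genes tested in bulk did not pass, with log2 fold changes of 0.01 ± 0.11 for Dclk3, 0.17 ± 0.11 for Dcdc2b, 0.19 ± 0.21 for Dcdc2c and -0.19 ± 0.18 for Rp1 (adjusted p = 0.978, 0.383, 0.649 and 0.591). Dcdc5 and Rp1l1 were too low to test. Brinp1 (-0.04 ± 0.05) and Brinp2 (0.13 ± 0.08) did not pass either. None of the 8 neuronal tubulin genes was called, Tubb2b being nearest at -0.36 ± 0.10 (adjusted p = 0.0651). Among 12 genes of dynein, Lis1 and kinesins, the transport machinery that works beside doublecortin, 0 were called, with a median of -0.13 beside 0.01 for all genes and Ywhae (-0.20 ± 0.06, adjusted p = 0.0869) and Ndel1 (-0.13 ± 0.05, adjusted p = 0.144) nearest. Of the 9 kinases and scaffolds that act on doublecortin 0 were called, with Cdk5, which phosphorylates it, at 0.18 ± 0.08 (adjusted p = 0.234) and Ank3 at 0.17 ± 0.08 (adjusted p = 0.25). Of the 7 reelin pathway genes 0 were called, and the adaptors Crkl (-0.21 ± 0.05, adjusted p = 0.0584) and Crk (-0.18 ± 0.05, adjusted p = 0.0685) were nearest. In these lists 1 tubulin gene, 6 transport genes and 3 reelin pathway genes had an unadjusted p under 0.05, beside 21.5% of all genes tested.

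In nuclei, none of the list genes passed an FDR of 0.2 in the sums over all nuclei (54 tested, 7 with an unadjusted p under 0.05), in Ex_L2/3-like (53 tested, 7) or in Ex_L4-like nuclei (53 tested, 10) by the quasi-likelihood test. DESeq2 called 0, 0 and 2, beside 20, 45 and 32 of all genes. By the quasi-likelihood test the share of all genes called was 0.0199%, 0.726% and 0.629%, and 8.35%, 11.5% and 9.9% had an unadjusted p under 0.05. Brinp1 and Brinp3, both relatives of the astrotactins, had log2 fold changes of -0.40 ± 0.13 and -0.41 ± 0.13 in Ex_L4-like nuclei (adjusted p = 0.295 and 0.29) and of -0.28 ± 0.13 and -0.23 ± 0.14 in Ex_L2/3-like nuclei. Brinp2 was at 0.14 ± 0.13 in each. Without CUS replicate 2, Brinp1 passed in both classes (-0.52 and -0.41, adjusted p = 0.0669 and 0.0695), as did the tubulin genes Tuba1b (0.66 and 0.49) and Tubb2a (0.47 and 0.49) in the other direction, when 5.71% and 13.9% of all genes were called. In that fit over all nuclei, in which 15.8% of all genes were called, 5 list genes were lower and 9 higher, of which 4 were tubulin genes.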

How the data were processed

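Nuclear RNA of 9 mPFC punches (bulk, 4 control and 5 CUS mice) and of single neocortical nuclei (sNucDrop-seq, 4 and 4 mice) was analysed, with groups from the sample labels and each mouse as 1 replicate. The deposited values are counts made by the authors, whole reads per gene in bulk and UMIs per gene and barcode in the nuclei, without normalization. The submitters' processing notes name STAR, edgeR, Seurat and mm10. For the nuclei the authors used GENCODE vM13 and counted exonic and intronic reads on the annotated strand. The same details for bulk are not given in the sources used here. A barcode was kept when it had 600 to 5000 genes, less than 5% of UMIs from mitochondria, and at most 0.2 as its doublet score by Scrublet (in scanpy 1.11.5, expected rate 0.1), a step that removed 4838 barcodes. Nuclei were clustered with Seurat 5.3.0 (2000 variable genes, 50 principal components, 20 neighbors, resolution 1). Naming cut-offs were set with the clusters in view. Counts were tested with edgeR 4.0.16 in R 4.3.3 (TMM, quasi-likelihood test, Benjamini-Hochberg over all genes tested), in bulk on 18394 genes at an FDR of 0.05, and in nuclei on UMIs summed per mouse and class, for genes with more UMIs than 10% of the nuclei, at an FDR of 0.2. SE is the log2 fold change over the root of the test statistic. Named genes were the 5 members, all doublecortin domain and BRINP relatives, genes past the FDR or the 2 with the smallest p in each other list, genes overlapping a member, and the 4 most alike in class pattern. Further genes, and classes named for their Dcx or Astn2 values, were chosen after their values were seen. The members, lists and tests were chosen with earlier results of these data known. The test was checked on simulated data with 200 changed genes. Of those changed 1.5-fold it recovered 72% in bulk (18394 genes) and 77% in Ex_L2/3-like nuclei (5371 genes). It recovered 83% in Ex_L4-like (4608 genes) and 13% in OPC-like nuclei (2611 genes). Of all its calls, 3.7%, 16.1%, 14.9% and 15.4% in the same order were of genes left unchanged. Recovery with a mouse apart from its group, as CUS replicate 2 was in the nuclei, was not tested. Replicate numbers were not taken to pair mice (correlations of same-numbered mice 0.033 to 0.23 in bulk, -0.464 to 0.393 over all nuclei). No 2 libraries of a group agreed within sampling noise. Promoter sequences came from RefSeq (GRCm38.p6), with all 5 genes matched. Background promoters were searched for the same 6 motifs on both strands. Alternatives were other tests, scaling, filters, clustering and each mouse left out. Counting error alone limits low values.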

Additional observations from a re-analysis of the deposited data

Results flagged for a closer look

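In 62 groups of 4 or 5 mice, 7 had a mouse far from the others (Dixon's test at 95%, which flags about 1 in 20 groups by chance). CUS replicate 2 of the nuclei was the high mouse for Dcx over all nuclei (175 CPM, the other 3 at 134 to 138), in excitatory nuclei (178 CPM, the other 3 at 140.2 to 142.4) and in Ex_L4-like nuclei (290.5 CPM, the other 3 at 220.4 to 226.5). These 3 groups hold the same nuclei in part. In bulk, CUS replicate 2, a different mouse, was high for Dcx at 114.7 CPM, and control replicate 4 was low for Astn1 at 467.1 CPM beside 524.7 to 528.7. Astn2 was high in excitatory nuclei of control replicate 2 (455.9 CPM beside 398.4 to 403.7) and low in inhibitory nuclei of CUS replicate 1 (347.5 CPM beside 478.7 to 502.8).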

How the results depend on the processing

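Of 1463 values recomputed under alternatives for 94 results, 1387 were labelled the same. Tested values had to keep their direction and their side of the threshold, and counts had to stay near the main count. Values of Dcx and Astn2 in nuclei, and levels, had only to stay within the spread between mice. A change of sign within that spread was therefore not counted as a change. No member gained or lost a call in bulk under any alternative. Of the 40 values of Dcx and Astn2 in excitatory and inhibitory classes, 17 took both signs with a mouse left out (5 of Dcx and 12 of Astn2), such as Dcx in the Foxp2 cluster (-0.72 to 0.21) and Astn2 in the Cpne7 cluster (-0.12 to 0.47). Other results changed sign as follows. Dclk1 was 0.0016 in bulk with the replicate block, a fit that also leaves out CUS replicate 5. Over all nuclei Dclk1 was 0.0016 (DESeq2) and 0.0143 (no TMM factors), and in excitatory nuclei 0.0015 and 0.0188. It was 0.0119 in non-neuronal nuclei without the doublet filter. In Ex_L4-like nuclei it was -0.0032 without that filter and -0.0172 with at least 1000 genes per nucleus. Astn1 in non-neuronal nuclei was -0.0229 without the filter on low counts and -0.0693 with at least 1000 genes. Leaving out each mouse moved Dclk1 from -0.0422 to 0.0096 in bulk, from -0.0319 to 0.0211 over all nuclei, from -0.0376 to 0.0315 in excitatory, from -0.0787 to 0.0768 in non-neuronal, from -0.0864 to 0.0209 in Ex_L2/3-like and from -0.0201 to 0.0742 in Ex_L4-like nuclei, Dclk2 in excitatory nuclei from -0.1123 to 0.0212, and Astn1 in non-neuronal nuclei from -0.0848 to 0.1258. Excitatory classes with lower Astn2 numbered 7 to 12 of 13. The Dclk1 level of astrocyte-like nuclei was 1662 without the doublet filter, and the cause was not tested.

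List genes called lower in bulk were 7 (likelihood ratio test), 8 (no TMM factors), 10 (DESeq2) and 1 to 7 with a mouse left out, and higher 0 to 3. Of all 18394 genes, 796 (likelihood ratio test), 619 (no TMM factors) and 856 (DESeq2) were called lower, and 104 to 733 with a mouse left out. In nuclei the likelihood ratio test called 1 list gene lower in excitatory, 1 lower and 1 higher in Ex_L2/3-like and 2 lower in Ex_L4-like nuclei. Of all genes it called 38 of 5341, 156 of 5371 and 96 of 4608 in either direction. DESeq2 called 1 list gene lower in excitatory and 2 lower in Ex_L4-like nuclei, beside 38 and 32 of all genes in either direction. DESeq2 on the lists was chosen after seeing the data. With a mouse left out, lower and higher calls reached 5 and 9 over all nuclei, 5 and 7 in excitatory, 5 and 5 in Ex_L2/3-like and 2 and 4 in Ex_L4-like nuclei, each from 0. These maxima came without CUS replicate 2, when 15.8%, 14.3%, 13.9% and 5.71% of all genes were called.

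In bulk, all genes called numbered 606, and 1330 (likelihood ratio test), 1402 (DESeq2) and 233 with the replicate block. The block in bulk also leaves out CUS replicate 5, which has no control of its number. Without that mouse and without a block, 142 genes were called. With the block no member was called in bulk, where Dcx was -0.2251. In nuclei the block gave 184 called genes in Ex_L2/3-like (39 without it) and 66 in Ex_L4-like nuclei (29 without it). Over all nuclei it gave 1 and in excitatory nuclei 2, the same as without it. The labels give the replicate numbers no further meaning. Classes that no cluster of an alternative matched (overlap under 0.6) gave no value there. Depth limits Dclk2 and classes under 200 Dcx UMIs.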

Other observations

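No cluster met the naming rule for immature neurons. Sox11, a transcription factor of newborn neurons, was highest in the Foxp2 cluster at 58.6 ± 29.9 CPM (SD, n = 8), Eomes, a marker of intermediate progenitors, reached 0.932 ± 2.64 at most, and Igfbpl1 32.5 ± 67.7 in the Nefm cluster. Sox4 was highest in OPC-like nuclei (205 ± 68.7), Neurod1 in Ex_L4-like (49.0 ± 13.9), Tubb2b in astrocyte-like (37.3 ± 19.9) and Dlx2 in Inh_Vip-like nuclei (42.4 ± 40.2). The sum of these markers is therefore not particular to immature neurons here. In bulk, 7 of the 9 markers could be tested and 0 passed (3 with an unadjusted p under 0.05, beside 21.5% of all genes), with a median log2 fold change of -0.36 beside 0.01 for all genes. Draxin was at -1.11 ± 0.35 (adjusted p = 0.092) and Sox11 at -0.31 ± 0.12 (adjusted p = 0.165). Tubb2b is in this list and in that of tubulins.

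Dcx in Microglia-like nuclei rested on 52 UMIs, with up to 6 in 1 nucleus. It had 0, 3, 9 and 4 UMIs in the control and 9, 4, 5 and 18 in the CUS mice, and 15.0% of the 247 nuclei had a UMI. Among the relatives, the doublecortin-like kinase gene Dclk3 was highest in striatal-like nuclei (97.5 ± 28.0 CPM). Brinp3 was highest in OPC-like nuclei (1461 ± 221), and Brinp1 in Fyb2 cluster 23 (1620 ± 193) with Ex_L4-like nuclei next (1231 ± 217).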
